A study of Homo sapiens with 12 samples.

Results

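The genes described here encode the 9 HECT-type ubiquitin ligases of the NEDD4 family, *SMURF1*, *SMURF2*, *ITCH*, *NEDD4*, *NEDD4L*, *WWP1*, *WWP2*, *HECW1* and *HECW2*, together with the RING-type ligase Arkadia, encoded by *RNF111*. They were chosen by symbol as E3 ligases that act on BMP and TGF-β receptors and SMADs other than MIB1, and the question was whether their transcripts changed after loss of MIB1. The 10 genes were 10 of 58302 identifiers in the count table, and all 10 were among the 17188 genes that passed the filter on low counts. RNA was sequenced from 12 libraries of NCIH838 lung cancer cells carrying a Dox-inducible Cas9 and a *MIB1* guide RNA (MIB1-iKO cells), a line made by puromycin selection and single-cell cloning, with 3 libraries in each of 4 groups. All 4 groups were held for 3 days in 50 nmol/L LDN, which blocks BMP type I receptors, and all then received 10 ng/mL BMP4 for 24 hours. MIB1 WT cells had no Dox, whereas MIB1 KO cells had 0.5 μg/mL Dox during the 3 days. In the BMP-off state LDN was kept during the 24 hours with BMP4, and in the BMP-on state DMSO took its place. Dox was given to each KO library and to no WT library, and what Dox itself or the cutting by Cas9 did cannot be told apart from MIB1 loss.

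HECT ligases of the NEDD4 family take ubiquitin onto a cysteine of their own catalytic domain before passing it on, and their WW domains bind PY motifs in substrates or in adaptor proteins. SMURF1 and SMURF2 are carried by the inhibitory SMADs, SMAD6 and SMAD7, to activated type I receptors and also bind receptor-regulated SMADs directly, which limits BMP and TGF-β signaling. Arkadia works in the opposite sense, since it marks SMAD7 and the corepressors SKI and SnoN (encoded by *SKIL*) for degradation and so favors signaling.

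The promoter sequences of *SMURF2*, *HECW2* and *SMURF1* are shown because the first was called after MIB1 loss with BMP-on, the second was called in the BMP response of both WT and KO cells, and the third is the closest relative of the first and was called in none of the 6 comparisons. Each is the 250 bases before the gene's start in RefSeq, build GRCh38.p14, written 5′ to 3′ along the gene, which lies on the minus strand in all 3 cases. They span chr17:64662308-64662557 for *SMURF2*, chr2:196593555-196593804 for *HECW2*, for which 1 of 2 listed starts is shown, and chr7:99144109-99144358 for *SMURF1*. In GENCODE v44 *HECW2* begins at 196593684, so that part of its window lies inside the gene in that annotation. Capitals mark matches on either strand to GTCT, the SMAD-binding element, or to GGCGC or GGCCG, letters of the GC-rich kind that SMAD1 and SMAD5 bind, and matches could overlap one another.
SMURF2: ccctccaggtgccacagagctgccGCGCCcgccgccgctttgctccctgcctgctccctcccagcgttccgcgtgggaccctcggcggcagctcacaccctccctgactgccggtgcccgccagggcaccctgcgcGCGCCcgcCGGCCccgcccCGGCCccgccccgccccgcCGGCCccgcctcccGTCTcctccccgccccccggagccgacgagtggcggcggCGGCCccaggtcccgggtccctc
HECW2: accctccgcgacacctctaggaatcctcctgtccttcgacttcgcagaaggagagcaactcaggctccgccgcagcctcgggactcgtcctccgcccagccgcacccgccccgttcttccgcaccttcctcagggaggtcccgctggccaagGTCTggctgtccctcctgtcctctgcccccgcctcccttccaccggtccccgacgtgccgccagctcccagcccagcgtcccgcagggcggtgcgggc
SMURF1: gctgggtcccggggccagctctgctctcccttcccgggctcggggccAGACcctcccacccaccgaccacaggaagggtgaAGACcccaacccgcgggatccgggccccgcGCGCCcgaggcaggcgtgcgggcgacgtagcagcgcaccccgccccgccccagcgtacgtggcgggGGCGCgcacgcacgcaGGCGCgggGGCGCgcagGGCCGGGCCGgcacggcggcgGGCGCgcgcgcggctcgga

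The *SMURF2* promoter held 1 match to GTCT, 2 to GGCGC and 4 to GGCCG, the *SMURF1* promoter held 2, 5 and 2, and the *HECW2* window shown held 1, 0 and 0. The window before the other *HECW2* start (chr2:196592984-196593233) held 3, 5 and 1 and was 74.8% G or C, so that the count for *HECW2* depends on the start taken. These letters are common, since among 35116 promoter windows of the same length 77.5% held GTCT, 44.5% GGCGC and 44.7% GGCCG. The *SMURF2* and *SMURF1* windows were 82.0% and 81.2% G or C, the *HECW2* window shown was 70.8%, and the median window was 58.0%. The matches describe the letters only, and the motifs were picked after the expression values were known.

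Total counts ranged from 19124010 to 29498000 per library, of which the 10 ligase genes together took 18510 to 28580. *MIB1* itself fell to 21.4% of the WT mean in KO cells with BMP-off and to 19.7% with BMP-on, with KO libraries between 31.03 and 34.38 CPM (counts scaled by TMM to a common library size) and WT libraries between 143.6 and 175.6 (log2 fold changes -2.23 and -2.34, edgeR adjusted p = 1.85e-11 and 9.7e-12). Among epithelial markers, *KRT18* (71.1 to 85.4 RPKM) and *KRT8* (21.8 to 43.2) were high, *EPCAM* (2.53 to 5.08) and *CDH1* (1.13 to 1.95) were low and *KRT19* was at most 0.0775, whereas the lung markers *NKX2-1*, *SFTPB* and *SFTPC* were at most 0.0568 and *NAPSA* was at 0.168 to 0.685. Of other cell types, the leukocyte genes *PTPRC*, *CD68* and *CD3E* were at most 0.221 RPKM, the endothelial genes *PECAM1* and *CDH5* at most 0.115 and the fibroblast genes *COL1A2* and *PDGFRB* at most 0.26, but the fibroblast gene *COL1A1* was at 1.77 to 6.25, in the range of *EPCAM*. The dependence of counts on transcript GC content varied between libraries, most in KO BMP-off replicates 2 and 3, where the rank correlation of a gene's deviation with GC was -0.603 and 0.586. The labels do not say that replicates were separate cultures, so that the p values measure the spread between these libraries, which may be technical. In bulk RNA, fewer cells of a type and less RNA per cell cannot be told apart, and transcripts say nothing of ligase protein or activity.

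Per length, *ITCH* was the most abundant of the ligase genes and *HECW1* was barely expressed. On the scale of the authors' RPKM (read counts scaled by gene length and library size), the mean over 12 libraries was 39.9 for *ITCH*, 20.83 for *WWP1*, 20.36 for *NEDD4*, 19.89 for *WWP2* and 19.54 for *SMURF2*. From *WWP1* to *SMURF2* the range over the libraries overlapped from each gene to the next, so that the order of these 4 is not separated beyond the spread. *RNF111* followed at 13.46, *SMURF1* at 10.56, *NEDD4L* at 6.483 and *HECW2* at 5.614 RPKM, where the ranges of the last pair overlapped. *HECW1*, a relative of *HECW2* known chiefly from neurons, averaged 0.4635 RPKM and 76 to 123 counts per library. *ITCH* thus held 25.4% of the summed RPKM of the 10 genes, and *HECW1* held 0.295%. The place of *SMURF2* rests on the length used, because its RPKM values imply a length of 2798 bases, whereas the union of its GENCODE v44 exons is 7213 bases, and per kilobase of that union it came in place 7 of 10 instead of place 5. No stretch of 50 bases, the read length, from the longest transcript of any of the 10 genes lay in a transcript of another of them. Of such stretches in the longest *ITCH* transcript, 42.3% also lie in a same-strand gene model not used here (ENSG00000289720), and 11.4% of those of *WWP1* lie in its pseudogene *WWP1P1* or in *RMDN1*, so that counts of reads from there are uncertain.

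**Figure D1:**
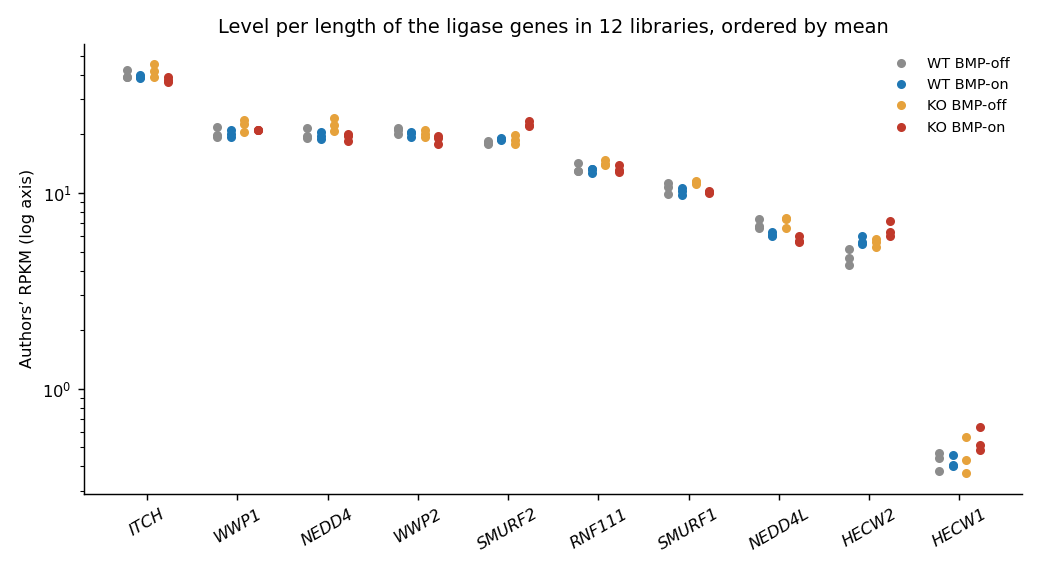
Authors' RPKM of the 10 ligase genes (log axis) in each of the 12 libraries, ordered by mean and colored by group. *ITCH* lies on top at 36.88 to 45.31 RPKM, 4 genes cluster near 20, and *HECW1* lies apart at 0.3696 to 0.635.

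With BMP-on, *SMURF2* was the 1 ligase gene of the 10 called after MIB1 loss, and it rose by 19.7%. *SMURF2* measured 53.79, 53.2 and 52.91 CPM in the WT BMP-on libraries and 62.39, 65.87 and 63.19 in the KO BMP-on libraries. Its BMP-off libraries read 51.1, 50.26 and 49.52 in WT and 51.92, 53.1 and 50.1 in KO cells. The 3 KO BMP-on libraries therefore stood above the other 9, which all lay between 49.52 and 53.79. On the log2 scale this KO difference was 0.26 ± 0.048 (SE), with a 95% interval of 11.6% to 28.4% and an edgeR adjusted p of 0.00443. With BMP-off the difference was 0.040 on the log2 scale, with an interval from -4.23% to 10.4% (edgeR adjusted p = 0.778). With BMP-on 3.67% of all genes passed the 0.05 threshold on the adjusted p, and 1.32% passed it as higher, against 1 of the 10 ligase genes, and at the study's further threshold of an absolute log2 fold change of 1 none of the 10 and 0.14% of all genes were called. The *SMURF2* call held in all 12 fits that left out a library (log2 fold change 0.23 to 0.27, edgeR adjusted p 0.00247 to 0.0472) and in all 14 fits with other processing (0.24 to 0.28). An exon of *SMURF2* (ENSG00000108854, chromosome 17, 64542282 to 64662307 in GRCh38, minus strand) overlaps *CEP95* on the opposite strand over 180 bases, and whether counting used the strand is not given in the sources used here.

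*SMURF1*, the closest relative of *SMURF2* and first described as a ligase of SMAD1 and SMAD5, gave no call. It read 56.74, 58.98 and 54.45 CPM in WT and 56.45, 55.26 and 57.17 in KO cells with BMP-on, and the groups overlapped. The difference was -0.734%, with a 95% interval from -8.26% to 7.41%, an interval that ends below the lower bound for *SMURF2* (edgeR adjusted p = 0.967). With BMP-off, *SMURF1* read 61.05, 54.65 and 58.89 CPM in WT and 62.95, 60.37 and 61.17 in KO cells, again with overlap (difference 5.64%, interval -2.34% to 14.3%). The ratio of *SMURF2* to *SMURF1* RPKM was 2.17, 2.34 and 2.17 in the KO BMP-on libraries and 1.86, 1.77 and 1.91 in the WT BMP-on libraries, and 1.65 ± 0.0657 and 1.7 ± 0.0917 (SD, n = 3) in KO and WT cells with BMP-off. The ratio depends on the lengths used by the authors, but its change between groups does not. *SMURF1* (chromosome 7, 99027440 to 99144108, minus strand) overlaps exons of *TRRAP* on the opposite strand over 735 bases.

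**Figure D2:**
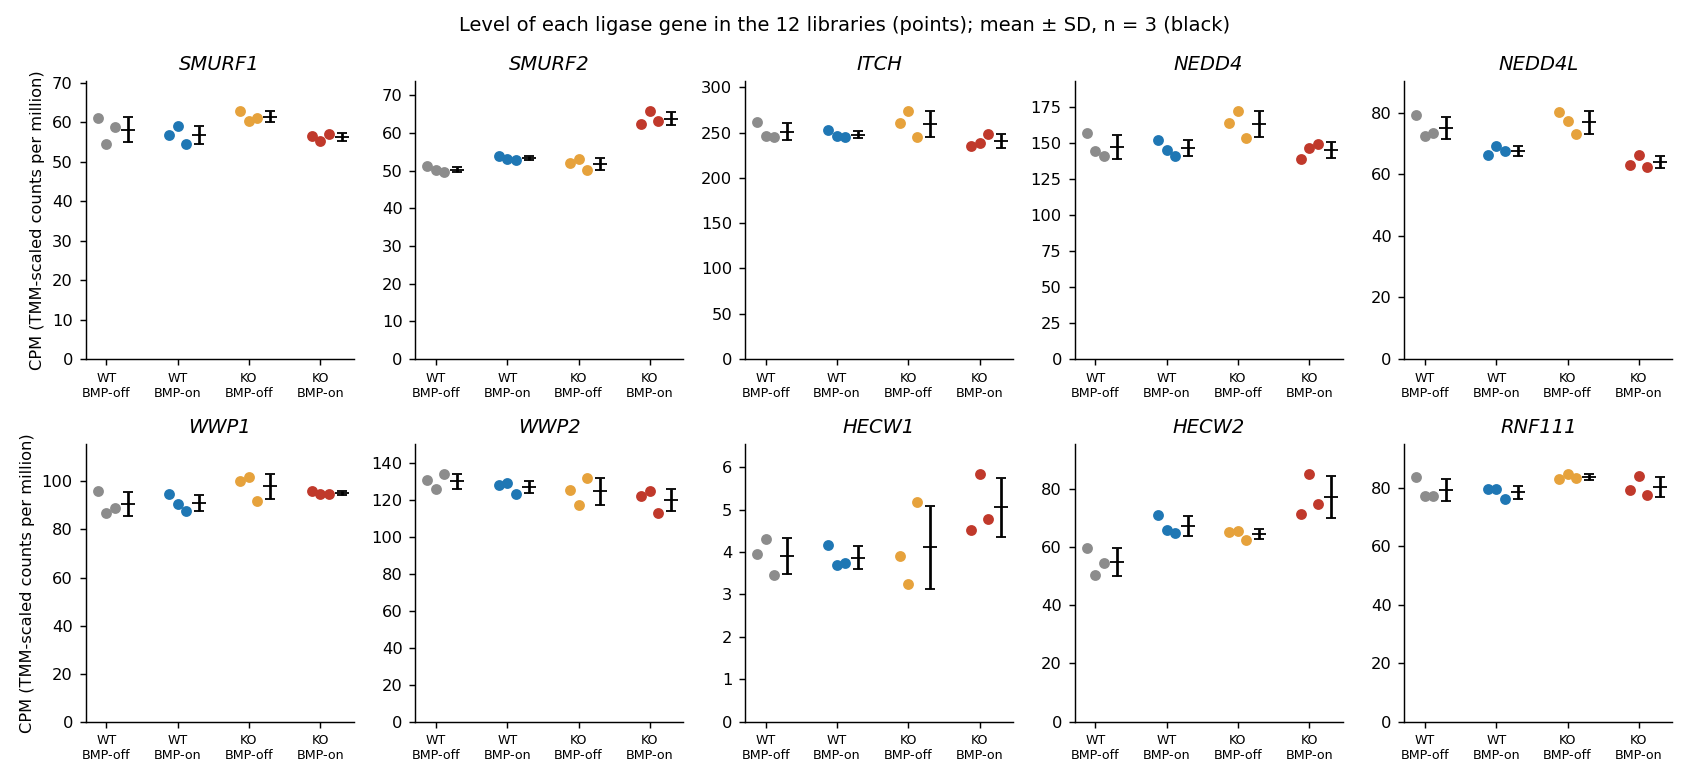
TMM-scaled CPM of each ligase gene in the 12 libraries, 1 panel per gene with an axis from 0, colored points for libraries by group and black bars for the mean ± SD of 3. *SMURF2* is raised in the KO BMP-on group, *HECW2* goes from WT BMP-off (mean 54.85) to KO BMP-on (77.15), and *NEDD4L* is lower in both BMP-on groups.

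*HECW2* had the highest values in KO cells in each BMP state, but in the edgeR fit it passed the test for KO against WT only when both states were averaged. HECW2 (also called NEDL2, ENSG00000138411, chromosome 2, 196189099 to 196593684, minus strand) is known for binding p73 and for roles in neuronal development. It read 59.69, 50.3 and 54.57 CPM in WT BMP-off, 71.13, 65.92 and 64.66 in WT BMP-on, 65.28, 65.48 and 62.47 in KO BMP-off and 71.43, 85.24 and 74.77 in KO BMP-on libraries. KO and WT did not overlap in either state, although WT BMP-on replicate 1 was only slightly below the lowest KO BMP-on library. On the log2 scale KO exceeded WT by 0.20 with BMP-on (edgeR adjusted p = 0.18) and 0.23 with BMP-off (unadjusted p = 0.00549, edgeR adjusted p = 0.366). Averaged over both states it was 0.21 ± 0.051, or 16% with a 95% interval of 7.68% to 24.9% (edgeR adjusted p = 0.0295), and *SMURF2* was called too at 0.15 ± 0.034 (adjusted p = 0.0234), so that 2 of the 10 genes were called, both higher, against 2.93% of all genes called and 1.2% called as higher. Both averaged calls were lost in other fits. For *HECW2* the call ended without any 1 of WT BMP-off replicate 2 or 3, WT BMP-on replicate 2 or 3, KO BMP-off replicate 1 or KO BMP-on replicate 2 or 3 (log2 fold change 0.17 to 0.23, edgeR adjusted p 0.0563 to 0.104). For *SMURF2* it ended without WT BMP-off replicate 2 or 3, KO BMP-off replicate 1 or any 1 BMP-on library (0.14 to 0.16, adjusted p 0.0521 to 0.0973). With a replicate block neither averaged difference was called, and with BMP-on alone *HECW2* was called in 3 of 14 other fits, with only the groups compared (0.20), with GC correction (0.22) and with the block and GC correction together (0.22).

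*HECW1* gave the largest difference of the 10 in size with BMP-on, but it was not called, and it had 76 to 123 counts per library. It read 4.176, 3.695 and 3.736 CPM in WT and 4.522, 5.85 and 4.777 in KO cells, and the groups did not overlap. The difference of 29.8% had an interval from 2.98% to 63.6% (edgeR adjusted p = 0.278), so that the depth does not separate a small change from a large one. With BMP-off the 3 KO libraries (3.908, 3.254 and 5.174 CPM) spread around the WT libraries (3.953, 4.304 and 3.456).

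The other NEDD4-family genes and *RNF111* gave no call after MIB1 loss in either BMP state. *NEDD4L*, whose product marks the activated forms of SMAD2 and SMAD3, read 66.23, 69.38 and 67.49 CPM in WT and 63.16, 66.28 and 62.46 in KO cells with BMP-on (difference -5.59%, interval -12.7% to 2.15%), and the groups overlapped by a narrow margin. *NEDD4*, the founding gene of the family, read 152.4, 145.7 and 141.3 in WT and 139.3, 146.9 and 149.8 in KO cells (-0.775%, interval -8.46% to 7.55%). *ITCH*, known from immune tolerance and as a ligase of Notch and SMAD7, read 252.9, 245.8 and 245 in WT and 234.8, 238.1 and 249 in KO cells (-2.93%, interval -9.42% to 4.01%). In all 3 genes the KO and WT libraries with BMP-on overlapped. *WWP1*, whose product can bind SMAD7 and act on the TGF-β type I receptor, read 94.62, 90.76 and 87.64 in WT and 96.04, 94.7 and 94.85 in KO cells, which did not overlap by a narrow margin (4.63%, interval -3.28% to 13.2%). *WWP2*, a ligase of SMADs, read 127.9, 129.2 and 123.3 in WT and 122, 124.6 and 112.9 in KO cells (-5.5%, interval -12.6% to 2.17%). *RNF111* read 79.82, 79.71 and 76.08 in WT and 79.25, 84.04 and 77.68 in KO cells (2.23%, interval -5.02% to 10%). For these 6 genes, the intervals with BMP-on leave room for changes of no more than 13.2% in size. KO and WT did not overlap with BMP-on for *SMURF2*, *WWP1*, *HECW1* and *HECW2*, 4 of 10 genes, against 23.6% of all genes.

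With BMP-off, 0 of the 10 genes were called by edgeR, by DESeq2 or by limma-voom, against 0.0407% of all genes by edgeR. Before adjustment 3 of the 10 had an edgeR p under 0.05, against 10.2% of all genes, and they were *HECW2*, *NEDD4* and *WWP1*. *NEDD4* had a log2 fold change of 0.14 and *WWP1* of 0.11, with edgeR adjusted p values of 0.416 and 0.487. *NEDD4* read 157.4, 144.6 and 141.5 CPM in WT and 164, 172.4 and 153.9 in KO cells, and WT replicate 1 lay above KO replicate 3. *RNF111* read 83.69, 77.17 and 77.31 in WT and 83.08, 84.96 and 83.59 in KO cells, where WT replicate 1 lay among the KO libraries (5.6%, interval -1.88% to 13.6%). Apart from *NEDD4*, *HECW2* and *RNF111*, the differences ran from -4.1% for *WWP2* (interval -11.3% to 3.67%) to 8.18% for *WWP1* (interval 0.00949% to 17%). *HECW2* was the 1 gene of the 10 without overlap, against 11.7% of all genes, and it was called in 1 of 14 other fits, that without a filter on low counts. The median log2 fold change over the 10 genes was 0.011 with BMP-on and 0.073 with BMP-off, where the medians over all genes were 0.0025 and -0.0086. Of the 10 values, 5 were positive with BMP-on and 9 with BMP-off.

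**Figure D3:**
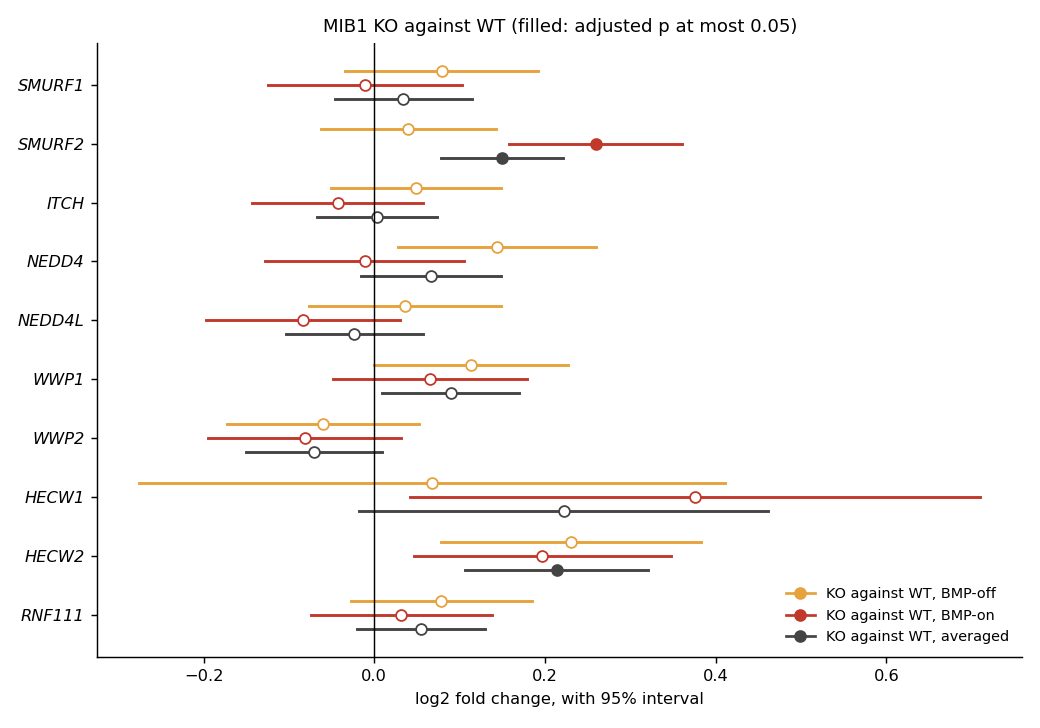
Effect of MIB1 loss (log2 fold change of KO over WT) on each ligase gene, with 95% interval, with BMP-off, with BMP-on and averaged over both; filled points have an edgeR adjusted p of at most 0.05. *SMURF2* is filled with BMP-on (0.26) and averaged (0.15), *HECW2* is filled averaged (0.21), and the *HECW1* intervals are the widest.

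After release of the BMP receptors from LDN, *HECW2* was called higher in both WT and KO cells in the reported fit. In KO cells *SMURF2* was also called higher, and *NEDD4L* and *NEDD4* were called lower. The *HECW2* and *NEDD4* calls did not hold in all other fits. These comparisons set BMP-on against BMP-off within a genotype and share their libraries with those of KO against WT. In WT cells *HECW2* rose by 22.4% (log2 fold change 0.29 ± 0.072, edgeR adjusted p = 0.0296), and it was the 1 gene of 10 called, against 3.92% of all genes called and 1.91% called as higher. In KO cells it rose by 19.6% (0.26 ± 0.071, edgeR adjusted p = 0.0166), and the difference between the responses was -0.034 on the log2 scale, with an interval from -15.8% to 13.3%. The WT call ended without WT BMP-off replicate 2 or 3, any 1 WT BMP-on library or KO BMP-off replicate 1 (0.23 to 0.32, adjusted p 0.0547 to 0.175), and the KO call ended without KO BMP-off replicate 1 (0.26, adjusted p = 0.0547) or KO BMP-on replicate 2 (0.18, adjusted p = 0.0923). Each of the 2 *HECW2* calls held in 10 of 14 fits with other processing and was absent from the 3 fits to RPKM.

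In KO cells 4 of the 10 ligase genes were called, 2 higher and 2 lower, against 22% of all genes, 11.1% higher and 10.9% lower. *SMURF2* rose by 23.3%, from a mean of 51.71 ± 1.51 to 63.82 ± 1.82 CPM (SD, n = 3), with a log2 fold change of 0.30 ± 0.048 and an edgeR adjusted p of 0.000271. In WT cells *SMURF2* went from 50.29 ± 0.788 to 53.3 ± 0.448 CPM, and although the groups did not overlap, the difference of 5.94% did not pass (interval -1.29% to 13.7%, edgeR adjusted p = 0.458). The difference between the *SMURF2* responses was 0.22 ± 0.068 on the log2 scale (unadjusted p = 0.00522), and with an edgeR adjusted p of 0.25 it was not called. It was called in 2 of 13 other fits, with GC correction (0.28, edgeR adjusted p = 0.0178) and with GC correction and a replicate block together (0.28). A stronger *SMURF2* response in KO than in WT cells was therefore not shown by the test across all genes.

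*NEDD4L* (ENSG00000049759, chromosome 18, 58044226 to 58401540, plus strand) had lower values with BMP-on in both genotypes and passed the test in KO cells. In KO cells it read 80.39, 77.45 and 72.99 CPM with BMP-off and 63.16, 66.28 and 62.46 with BMP-on, and fell by 16.9% (log2 fold change -0.27 ± 0.053, edgeR adjusted p = 0.00197). In WT cells it read 79.2, 72.43 and 73.45 CPM with BMP-off and 66.23, 69.38 and 67.49 with BMP-on, also without overlap (-9.79%, interval -16.6% to -2.44%, edgeR adjusted p = 0.157). The difference between the responses was -0.12 (edgeR adjusted p = 0.567). The *SMURF2* and *NEDD4L* calls in KO cells held in all 12 fits that left out a library and in all 14 with other processing, with log2 fold changes from 0.25 to 0.37 and from -0.34 to -0.23. Exons of *NEDD4L* overlap the noncoding genes ENSG00000267396 over 824 bases and ENSG00000267743 over 177 bases, both on the opposite strand. Whether counting used the strand is not given for *NEDD4L* either.

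*NEDD4* (ENSG00000069869, chromosome 15, 55826922 to 55993660, minus strand) fell by 11.1% in KO cells (163.4 ± 9.28 to 145.3 ± 5.42 CPM, SD, n = 3, log2 fold change -0.17 ± 0.055, edgeR adjusted p = 0.0362). This call changed with the library left out and with GC correction. The *NEDD4* transcript has 37.7% G or C, and its highest value of 172.4 CPM stood in KO BMP-off replicate 2, the library with the strongest excess of reads from transcripts of low GC content. *ITCH*, at 39.2% G or C, had its highest value of 273.8 CPM in the same library. With GC correction the *NEDD4* difference was -0.080 and was not called. Without KO BMP-off replicates 2 and 3 together the difference was -0.18, and a part of GC content in it was not tested. The call held in 4 of 14 other fits. It ended without WT BMP-on replicate 2, KO BMP-off replicate 1 or 2, or any 1 KO BMP-on library (-0.20 to -0.13, edgeR adjusted p 0.0512 to 0.166). *SMURF1* (-0.13, edgeR adjusted p = 0.0999) and *ITCH* (-0.11, adjusted p = 0.104) were near the threshold in KO cells. GC correction brought calls for *SMURF1* (-0.17) and *WWP2* (-0.24), whose transcript has 57.4% G or C, and leaving out KO BMP-off replicate 3 brought calls for *ITCH* (-0.16, adjusted p = 0.0198) and *HECW1* (0.46, adjusted p = 0.0275). *WWP1*, *WWP2*, *HECW1* and *RNF111* had adjusted p values from 0.203 to 0.614 in the KO response.

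**Figure D4:**
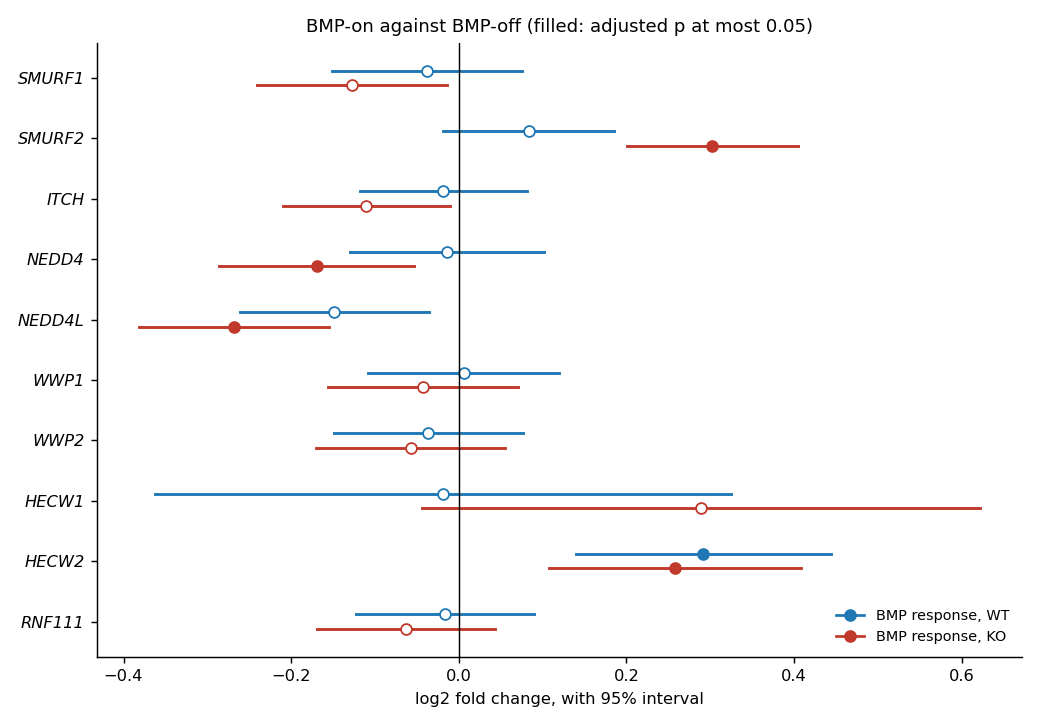
Log2 fold change of BMP-on against BMP-off in WT cells and in KO cells for each ligase gene, with 95% interval; filled points have an edgeR adjusted p of at most 0.05. *HECW2* is filled in WT (0.29) and KO cells (0.26), *SMURF2*, *NEDD4L* and *NEDD4* are filled in KO cells, and the other genes have open points.

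Groups did not overlap between BMP states for *SMURF2*, *NEDD4L* and *HECW2* in WT cells, against 23.9% of all genes, and for these and *SMURF1* and *NEDD4* in KO cells, against 35.8%. No difference between the BMP responses of KO and WT cells was called for any of the 10 genes by edgeR, DESeq2 or limma-voom, against 0.0931% of all genes by edgeR, and 1 of the 10, *SMURF2*, had an unadjusted p under 0.05 against 10.6% of all genes. The median over the 10 genes was -0.017 for the response of WT cells, -0.060 for that of KO cells and -0.048 for the difference, where all genes gave 0.0016, 0.0056 and 0.012.

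**Figure D5:**
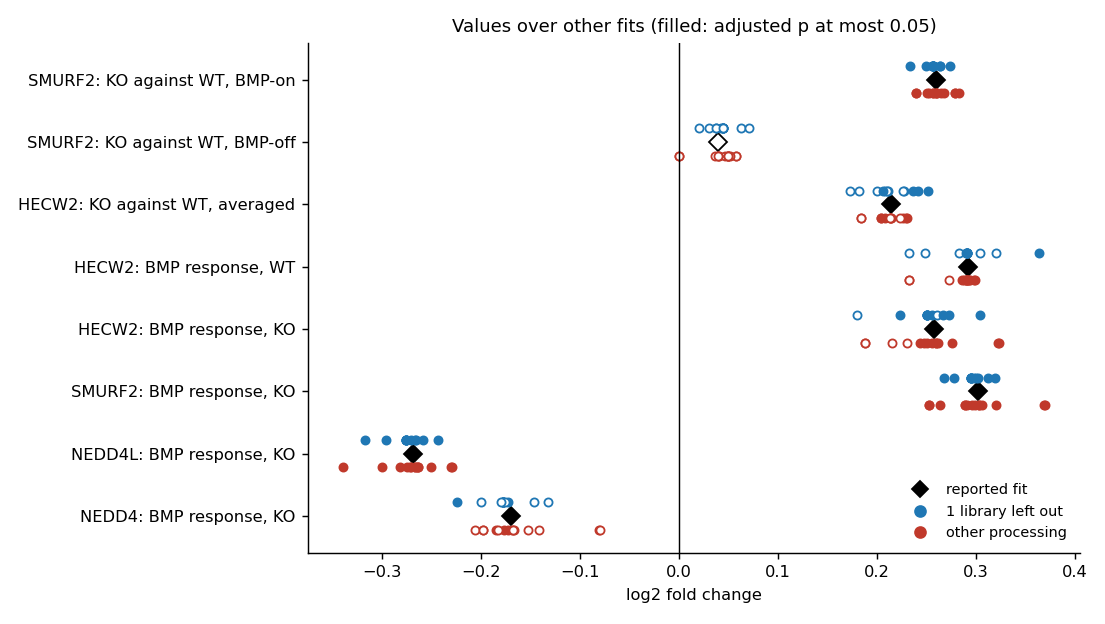
Log2 fold change of selected ligase genes and comparisons as reported (diamonds), with 1 library left out (blue) and with other processing (red); filled symbols have an adjusted p of at most 0.05. *SMURF2* (KO against WT with BMP-on, and the BMP response in KO cells) and *NEDD4L* (BMP response in KO cells) are filled throughout, and *HECW2* and *NEDD4* are filled in some fits only.

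Across the 12 libraries, *SMURF2* values followed most closely those of *PPP1R3C* (Pearson's r = 0.979 of log2 CPM), *ATP6V0A1* (0.976) and *LYN* (0.976). *SMURF1* was most like *BMP2K* (0.934), *RPS6KA3* (0.93) and *ZFYVE9* (0.92), and *RNF111* was most like *CDK12* (0.915), *ZNF462* (0.894) and *CNKSR3* (0.892). Among the ligase genes themselves *ITCH* and *NEDD4* went together most (0.9), *SMURF2* and *HECW2* next (0.85), and *SMURF2* and *NEDD4L* went in opposite directions (-0.726). These are descriptions over 12 libraries that share 4 treatment groups, depth and GC trend, and with RPKM the nearest genes to *SMURF2* became *ATP6V0A1*, *LYN* and *PPP1R3B*.

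Several adaptors that bring these ligases to their substrates were called after MIB1 loss with BMP-on. Of 12 listed adaptors 11 were tested, *LDLRAD4* being left out with at most 7 counts, and with BMP-on 4 rose and 1 fell in KO cells, where 3.67% of all genes were called (median log2 fold change 0.055, against 0.0025 for all genes). The inhibitory SMADs rose, *SMAD6* by 0.41 ± 0.097 on the log2 scale (edgeR adjusted p = 0.0268) and *SMAD7* by 0.48 ± 0.089 (adjusted p = 0.00541). The arrestin-domain genes *ARRDC2* (0.52 ± 0.078, edgeR adjusted p = 0.00113) and *ARRDC3* (0.33 ± 0.048, adjusted p = 0.00104), whose products carry NEDD4-family ligases to membrane proteins, rose as well. *AMOT*, encoding angiomotin, a PY-motif protein that binds these ligases and YAP, fell (-0.55 ± 0.088, edgeR adjusted p = 0.00165). In the BMP response of WT cells *ARRDC2* also rose (0.61, edgeR adjusted p = 0.000246) and *AMOT* also fell (-0.43, adjusted p = 0.00606). *ARRDC3* was not called there (0.092, edgeR adjusted p = 0.4). The KO differences with BMP-off were 0.035 for *ARRDC2*, 0.052 for *ARRDC3* and -0.13 for *AMOT*. With BMP-off, 0 of 11 adaptors were called by edgeR, with 3 at an unadjusted p under 0.05, against 10.2% of all genes, and 0 called by DESeq2. The *SMAD6* difference with BMP-off was as large as with BMP-on, at 0.42 ± 0.12 or 34.1% (interval 12.7% to 59.7%, groups without overlap, edgeR adjusted p = 0.333), and the difference between the BMP states was -0.018 (edgeR adjusted p = 0.971). *SMAD7* gave 0.24 ± 0.097 or 18.4% with BMP-off (interval 2.56% to 36.7%, edgeR adjusted p = 0.434). *SMAD6* and *SMAD7* are also direct BMP targets, and among the 6 readouts of the pathway (*ID1*, *ID2*, *ID3*, *SMAD6*, *SMAD7* and *BAMBI*) 4 rose in KO cells with BMP-on, so that these adaptors are not evidence apart from that readout.

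Among 16 listed substrates 15 were tested (*BMPR1B* had at most 13 counts), and with BMP-on 1 rose and 1 fell in KO cells (median log2 fold change 0.0215). These made 13.3% of the substrates tested, against 3.67% of all genes. Before adjustment 6 of the 15 had an edgeR p under 0.05, against 13.8% of all genes. *SMAD9*, encoding a SMAD of the BMP branch, rose by 0.75 ± 0.067 (edgeR adjusted p = 1.3e-05), and it also rose with BMP-off (0.97 ± 0.089, adjusted p = 5.65e-05). *SMAD2*, encoding a SMAD of the TGF-β branch, fell by 0.21 on the log2 scale with BMP-on (edgeR adjusted p = 0.0477), and with upper-quartile scaling, with a replicate block and in the 3 fits to RPKM 1 substrate was called in place of 2. The receptor genes in the list, *BMPR1A*, *BMPR2*, *ACVR1*, *ACVR2A*, *ACVR2B*, *TGFBR1* and *TGFBR2*, and *SKI* and *SKIL*, the corepressor targets of Arkadia, gave no call for KO against WT. With BMP-on, the groups did not overlap for *BMPR2*, which was 18.8% higher in KO cells (interval 6.31% to 32.7%, edgeR adjusted p = 0.0996). Nor did they for *ACVR1*, which was 10.7% higher (interval 1.38% to 21%, edgeR adjusted p = 0.262), against 23.6% of all genes without overlap. The other receptor genes in the list overlapped with BMP-on. With BMP-off the receptor gene without overlap was *ACVR2B*, against 11.7% of all genes. It was 18.8% higher in KO cells (interval 5.74% to 33.6%, edgeR adjusted p = 0.366). Averaged over both states, *BMPR2* was 14.9% higher (interval 6.19% to 24.3%, edgeR adjusted p = 0.0607). *BMPR2* also rose in the BMP response of WT cells, by 31.8% without overlap (interval 17.9% to 47.4%, edgeR adjusted p = 0.00661). In that response 4 of the 15 substrates were called, all higher (26.7%, against 3.92% of all genes). They were *BMPR2*, *SMAD9* (2.41, edgeR adjusted p = 3.76e-11), *SKI* (0.37 ± 0.056, adjusted p = 0.000848) and *SKIL* (0.37 ± 0.058, adjusted p = 0.00126). In the response of KO cells 9 of the 15 were called, 5 higher and 4 lower (60%, against 22% of all genes). *SKI* and *SKIL* rose there too (0.53 ± 0.056 and 0.20 ± 0.058, edgeR adjusted p = 4.93e-06 and 0.0201). *RNF111* gave -0.016 in the WT response and -0.063 in the KO response without a call.

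Other enzymes of the pathway gave no edgeR call for KO against WT in either BMP state. None of 8 deubiquitinases of the pathway, 14 other E3 ligases and regulators or 18 HECT ligases outside the NEDD4 family was called by edgeR or DESeq2 with BMP-on. In each list 1 had an unadjusted edgeR p under 0.05 there, against 13.8% of all genes. With BMP-off none was called by edgeR, with 2, 1 and 1 at an unadjusted p under 0.05, against 10.2% of all genes, and DESeq2 called 1 deubiquitinase. Averaged over both states 1 was called by edgeR, against 2.93% of all genes. It was the deubiquitinase gene *CYLD*, whose product cleaves linear and lysine 63-linked chains (0.17 ± 0.035, edgeR adjusted p = 0.0106), a call absent from the 3 fits to RPKM. In the BMP response of KO cells, where 22% of all genes were called, 2 of 8 deubiquitinases were called (25%), of which *OTUB1* rose (0.24 ± 0.073, edgeR adjusted p = 0.0302) and *UCHL5* fell (-0.22 ± 0.053, adjusted p = 0.00661). Of the 14 other E3 ligases and regulators 1 was called (7.14%), *TRIM33*, a RING ligase of SMAD4, which fell (-0.27 ± 0.065, edgeR adjusted p = 0.00741). Of 18 HECT genes outside the family 5 were called (27.8%), of which *HECTD2* rose and *HERC4*, *HERC5*, *HERC6* and *HACE1* fell.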

How the data were processed

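RNA-seq of 12 NCIH838 MIB1-iKO libraries was used, 3 in each of 4 groups taken from the sample labels, with every sample column used. Single-end 50-base reads were depleted of ribosomal sequence by the authors, aligned to GRCh38 with GSNAP and deposited as raw counts per gene. The paper describes counting over RefSeq exons with HTSeqGenie. The identifiers of the counts are Ensembl ids, however, so that the gene models counted are uncertain. The authors also deposited RPKM values normalized between libraries, which served for levels between genes and for alternatives. GENCODE v44 gave symbols and positions for 57532 of 58302 identifiers. The labels name both a stranded and an unstranded kit without saying which was used for which library.

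Tests on counts used edgeR 4.0.16 in R 4.3.3 (TMM scaling, default filter on low counts, 17188 genes, robust quasi-likelihood fit over all 12 libraries), with Benjamini-Hochberg adjustment over all genes in each of 6 comparisons and calls at an adjusted p of at most 0.05. SE and 95% intervals came from the same model. The procedure was tested on simulated counts with the same dispersion for every gene and no GC trend, so that test does not cover these features of the data. The ligase genes and the gene lists were chosen with earlier results of these data known, and all ligase genes are reported. From the lists, genes called for KO against WT are named, together with receptor genes, *SKI*, *SKIL*, *OTUB1*, *UCHL5*, *TRIM33* and HECT genes that were named after their values were seen. Genes of like pattern are the 3 with the highest Pearson's r of log2 CPM.

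Alternatives were a fit with DESeq2 1.42.0, the study's limma-voom with quantiles (limma 3.58.1), upper-quartile or library-size scaling, a minimum of 10 counts per library or no filter, a fit to only the groups compared, a replicate block, leaving out each library, log2(RPKM + 1), with and without a filter, and log2(RPKM + 0.1), a GC correction by loess with a span of 0.4, and this with the block. Leaving out KO BMP-off replicates 2 and 3 together was added after the data were seen. Promoters came from RefSeq (GRCh38.p14) for 9 of the 10 genes.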

Additional observations from a re-analysis of the deposited data

How the results depend on the processing

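The number of ligase genes called was 1 for KO against WT with BMP-on, and it became 2 with only the groups compared, with GC correction and with the replicate block and GC correction together, each adding *HECW2*. With BMP-off it went from 0 to 1 without a filter on low counts. Averaged over both states it went from 2 to 1 without a filter on low counts and in the 3 fits to RPKM, and to 0 with the replicate block and without KO BMP-off replicates 2 and 3. In the BMP response of WT cells it went from 1 to 0 with the replicate block and in the 3 fits to RPKM, and in that of KO cells from 4 to 2 in the fits to RPKM and without those 2 libraries. For the interaction it went from 0 to 1 with GC correction, alone or with the block. A further threshold of an absolute log2 fold change of 1 left 0 in each comparison. Leaving out 1 library gave 1 to 1, 0 to 0, 0 to 2, 0 to 1, 2 to 6 and 0 to 0 ligase genes in these 6 comparisons. Of 18 same-numbered pairs of libraries 2 had a correlation above 0.1, which gave no clear sign of pairing by replicate number. This does not exclude pairing, because the libraries also differed in their GC trend. The paper describes dividing the cells equally between medium with and without LDN after 3 days, so that BMP-on and BMP-off libraries may share a culture. The block changed no other count of ligase genes by more than 1.5 times.

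Values close to 0 changed sign, none of them called. For KO against WT with BMP-on, *SMURF1* became 0.0019 with limma-voom and 0.013 with library-size scaling, and *NEDD4* became 0.019, 0.012, 0.0096 with GC correction and 0.010 with the block added. With BMP-off, *ITCH* became -0.0015 and -0.0014, *WWP2* became 0.024 and 0.024 with GC correction without and with the block, and *SMURF2* became -1.868e-05 with both. Averaged, *ITCH* became -0.0018 without a filter, -0.01305 with GC correction and -0.01302 with the block added, and *NEDD4L* became 0.0087 without KO BMP-off replicates 2 and 3. In the WT response, *WWP1* became -0.0050 with limma-voom and -0.0096, -0.00999 and -0.0096 in the fits to RPKM. With GC correction, without and with the block, *WWP1* became 0.02717 and 0.0274 and *RNF111* became 0.002778 and 0.00269 in the KO response, and in the interaction *WWP1* became 0.01582 and 0.01507, *HECW2* 0.02367 and 0.02366 and *RNF111* 0.0118 and 0.01147. The cause was not tested.

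With 1 library left out, KO against WT with BMP-on spanned -0.044 to 0.017 for *SMURF1*, -0.041 to 0.017 for *NEDD4* and -0.0048 to 0.053 for *RNF111*. With BMP-off *HECW1* spanned -0.11 to 0.20, and averaged *ITCH* spanned -0.018 to 0.027 and *NEDD4L* -0.039 to 0.0017. The WT response spanned -0.081 to 0.0052 for *SMURF1*, -0.039 to 0.019 for *ITCH*, -0.048 to 0.039 for *NEDD4*, -0.024 to 0.056 for *WWP1*, -0.098 to 0.052 for *HECW1* and -0.039 to 0.030 for *RNF111*. The interaction spanned -0.067 to 0.013 for *WWP2* and -0.11 to 0.022 for *HECW2*. Depth limits *HECW1* most, which had at most 123 counts in a library, and GC correction changed at least 1 call of *NEDD4*, *WWP2*, *SMURF1*, *HECW2* and *SMURF2* and turned the sign of uncalled values of *NEDD4*, *ITCH*, *WWP1*, *WWP2*, *HECW2* and *RNF111*.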
